A study of Mus musculus with 8 samples.

Results

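The 9 receptors described here guide lymphocytes through tissues: the chemokine receptors Cxcr3, Cxcr4, Cxcr5, Cxcr6 and Cx3cr1, the sphingosine phosphate receptors S1pr1 and S1pr4, the oxysterol receptor Gpr183 and the homing receptor Gpr15. They were taken as a named set of genes and found on the array by Entrez identifier. The set was chosen with earlier results of these data known, so its counts beside those of all probe sets are a description. They have 12 probe sets among 45037 that are not controls, and they are 9 of 20665 genes with a probe set of their own. The other 6 genes have 1 probe set each, and Cxcr6, Cx3cr1 and Gpr183 have 2 probe sets.

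The samples were CD4+CD25+ T cells sorted from untreated mice aged 14 to 17 weeks, whose lymph nodes and spleens were pooled over 20 animals. GFP-RFP+ cells, labelled as peripherally induced regulatory T cells, and GFP+RFP+ cells, labelled as thymically induced, were each sorted from lymph nodes and from spleen. Every group has 2 arrays that the labels call technical replicates, made from 50 ng of RNA, so each group counted as 1 sample. The sources used here do not say which promoters drive the fluorescent proteins or which strain was used, and pooling leaves no measure of the spread between mice or sorts.

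Leukocyte chemokine receptors couple to inhibitory G proteins and steer cells along gradients of their ligands. S1pr1 reads the high sphingosine phosphate level of blood and lymph and lets T cells leave lymphoid organs, and the surface protein Cd69 removes it from the membrane. Gpr183, also known as EBI2, reads hydroxylated cholesterol derivatives made by stromal cells and positions cells at the borders of follicles and T cell zones. On regulatory T cells, Cxcr3 is known as a marker of cells that express the factor T-bet, Cxcr5 of follicular regulatory cells, and Gpr15 as a homing receptor for the colon.

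Between 24013 and 25329 probe sets were called P, read as present, per array. Technical pairs correlated at 0.974 to 0.979 over all probe sets, and arrays of different groups at 0.959 to 0.974. Foxp3, which defines regulatory T cells, was called P in all 8 arrays. Its signal was 992 and 1084 in GFP-RFP+ lymph node arrays, against 1386 and 1530 in GFP+RFP+ lymph node arrays. In spleen it was 1003 and 905 in GFP-RFP+ arrays, against 1579.9 and 1427 in GFP+RFP+ arrays. The regulatory T cell markers were called P in all 8 arrays for 5 of 6 genes, each by its brightest probe set. Of 37579 probe sets with a single Entrez identifier, 15652 were called P in all 8 arrays, that of Cxcr4 not counted.

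Of the 12 receptor probe sets, 9 were called P in all 8 arrays, and these cover 8 of the 9 genes. This compares with 15652 of the 37579 probe sets with a single Entrez identifier, that of Cxcr4 not counted. Cx3cr1, the receptor for the membrane-bound chemokine fractalkine, was the exception, with P in 3 arrays for one probe set and in 1 array for the other. Its brighter probe set had signals between 14.5 and 26.4, near the median of all probe sets, which was between 25.0 and 27.1 by array. Cxcr6 was called P in all 8 arrays by probe set 1425832_a_at, but in 6 by 1422812_at, which was called A in 1 array and M in 1. By mean log2 signal the order was Cxcr4, Cxcr3, Gpr183, S1pr1, S1pr4, Cxcr5, Cxcr6, Gpr15 and Cx3cr1. This orders the signals of different probe sets, which are not calibrated against each other, so it does not order transcript amounts. Gpr183 and S1pr1 had means of 9.29 each, and Cxcr6 and Gpr15 had 7.10 and 6.97, closer than the spread of either over arrays.

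**Figure D1:**
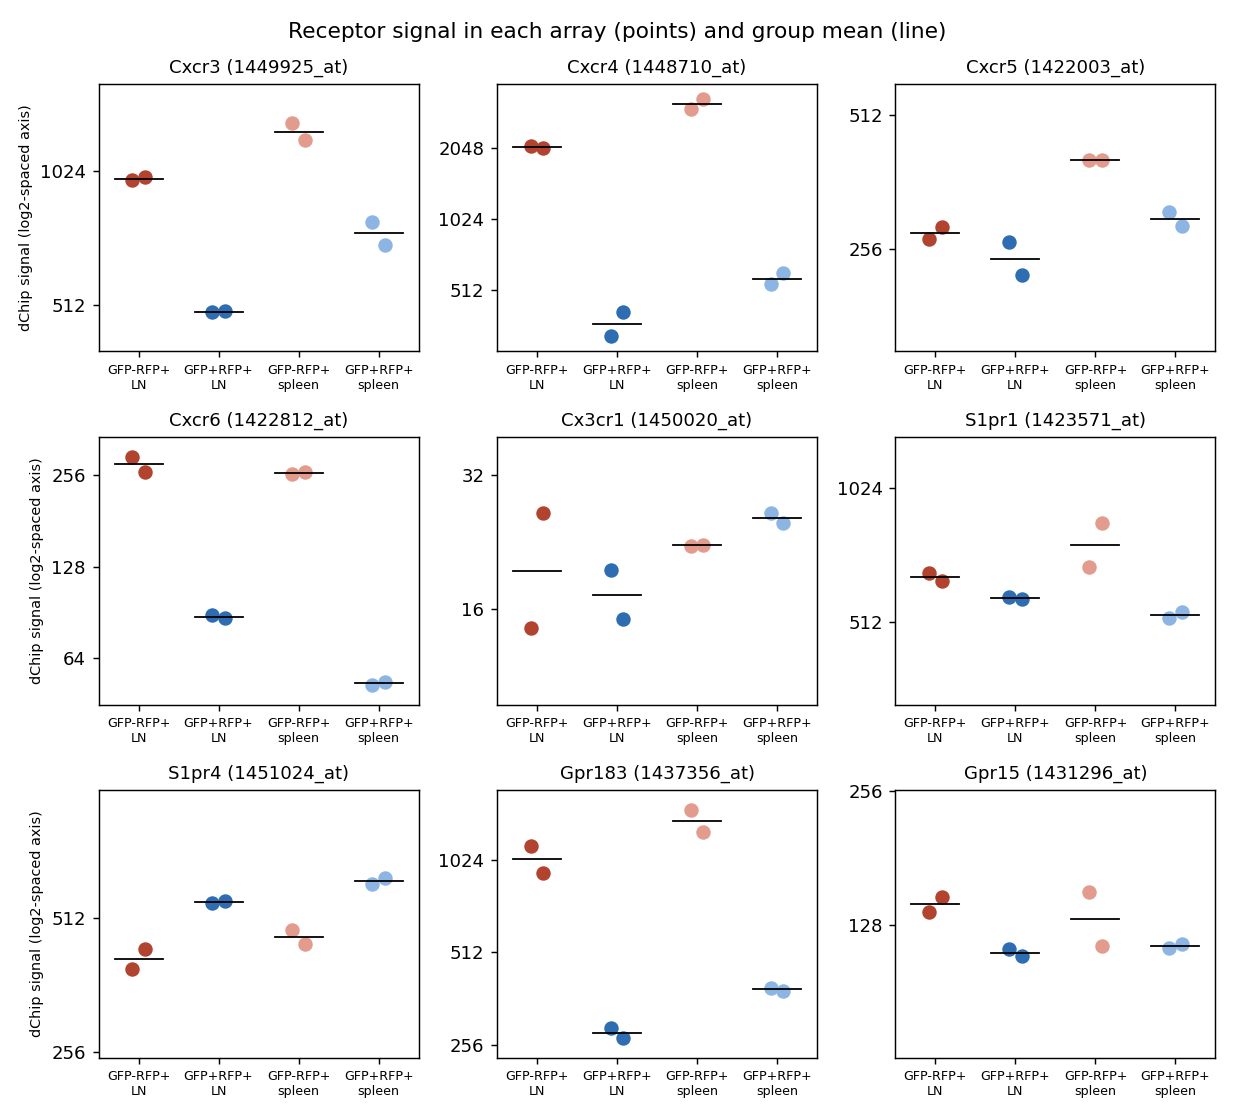
Signal of the 9 receptors on a log2-spaced axis, 1 panel per gene with its brightest probe set, in GFP-RFP+ and GFP+RFP+ arrays from lymph nodes (LN) and from spleen. Points are the 2 technical arrays and lines their mean on the log2 scale. Cxcr4, Cxcr6, Gpr183, Cxcr3 and S1pr1 are higher in all GFP-RFP+ arrays than in any GFP+RFP+ array, and S1pr4 is lower.

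The population comparison asks how labelled peripherally induced cells differ from labelled thymically induced cells. Cxcr4, Cxcr6, Gpr183 and Cxcr3 had higher signal in GFP-RFP+ cells in both organs. Averaged over organs, the difference by the brightest probe set of each gene was 1.83-fold for Cxcr3 and 3.58- to 5.55-fold for the others. The dimmer Gpr183 probe set gave 1.39-fold. S1pr4 had lower signal. Differences of S1pr1, Cxcr5 and Gpr15 were small, and Cx3cr1 showed no common direction. None of these differences passed the adjusted test, because the fit of 4 profiles called 0 of 45037 probe sets, or 0%, at an adjusted p below 0.05. At an unadjusted p below 0.05, limma counted 7 of the 12 receptor probe sets, against 17.1% of all probe sets. Both probe sets of Cxcr6 and both of Gpr183 are among them. When limma took the spread from a mean-variance trend over all probe sets, 8 receptor probe sets were called higher, against 10.1% of all, and 1 lower, against 5.34%. Without the trend, the prior has 1.72 degrees of freedom against 1 of the residual, so that fit also borrows most of its spread from other probe sets. The trend raises the prior degrees of freedom to 13.4, so a still larger part is borrowed.

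Cxcr4, the receptor for the stromal chemokine Cxcl12 and known for holding cells in bone marrow, differed most. Its signal was 2086 and 2035 in GFP-RFP+ lymph node arrays, against 326 and 411 in GFP+RFP+ lymph node arrays. In spleen it was 2982 and 3296 in GFP-RFP+ arrays, against 541 and 602 in GFP+RFP+ arrays. No array of a group overlapped the next group in the order GFP-RFP+ spleen, GFP-RFP+ lymph nodes, GFP+RFP+ spleen, GFP+RFP+ lymph nodes. The log2 difference over both organs was 2.47 ± 0.11 (limma moderated SE, 4 averaged profiles), with a 95% interval of 2.10 to 2.84. It was 5.55-fold on the scale of signal + 1. This SE, like every other given here, joins the probe set's own spread with spread borrowed from all probe sets. The central 95% of all probe sets lay between -0.775 and 0.989. The adjusted p from limma was 0.25 without the trend, and it was between 1.53e-12, with the trend, and 0.319 over 17 alternatives. The largest distance between technical arrays of a group was 0.33 on the log2 scale.

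Gpr183 followed the same order of groups. Probe set 1437356_at read 1132 and 929 in GFP-RFP+ lymph node arrays, against 290.5 and 270.3 in GFP+RFP+ lymph node arrays. In spleen it read 1483 and 1257 in GFP-RFP+ arrays, against 393 and 384 in GFP+RFP+ arrays. The groups did not overlap in either organ. The log2 difference was 1.84 ± 0.11 (SE, 4 averaged profiles), 3.58-fold, with a limma adjusted p of 0.25, and of 3.77e-11 to 0.319 over 17 alternatives. The dimmer probe set 1457691_at, between 45.0 and 98.0 in all arrays, had a difference of 0.48, and the mean of both probe sets gave 1.16. Its arrays overlapped between populations when organs were joined.

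Cxcr6, the receptor for the membrane-anchored chemokine Cxcl16, was read by 2 probe sets that agree. Probe set 1422812_at had 295 and 263 in GFP-RFP+ lymph node arrays, against 88.8 and 86.7 in GFP+RFP+ lymph node arrays. In spleen it had 259 and 263 in GFP-RFP+ arrays, against 52.4 and 53.7 in GFP+RFP+ arrays. The GFP-RFP+ arrays of both organs overlapped, while the GFP+RFP+ arrays were higher in lymph nodes than in spleen. The log2 difference was 1.97 ± 0.22 (SE, 4 averaged profiles), with a limma adjusted p of 0.25, and of 2.91e-08 to 0.319 over 17 alternatives. It was 1.65 within lymph nodes and 2.28 within spleen, and this difference between organs was not tested, since the fit uses it as its error. Probe set 1425832_a_at gave 2.16 ± 0.23, with 1.82 within lymph nodes and 2.50 within spleen.

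Cxcr3, the receptor for the interferon-induced chemokines Cxcl9 and Cxcl10, differed less. Its signal was 977 and 991 in GFP-RFP+ lymph node arrays, against 494 and 495 in GFP+RFP+ lymph node arrays. In spleen it was 1311 and 1202 in GFP-RFP+ arrays, against 788 and 699 in GFP+RFP+ arrays. All 4 GFP-RFP+ arrays lay above all 4 GFP+RFP+ arrays. The log2 difference was 0.87 ± 0.13 (SE, 4 averaged profiles), 1.83-fold, with a limma adjusted p of 0.25, and of 2.45e-07 to 0.323 over 17 alternatives.

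The sphingosine phosphate receptors differed in opposite directions by small amounts. S1pr4, which is found mainly on blood cells, had 392 and 436 in GFP-RFP+ lymph node arrays, against 552 and 558 in GFP+RFP+ lymph node arrays. In spleen it had 481 and 446 in GFP-RFP+ arrays, against 609 and 628 in GFP+RFP+ arrays. All GFP-RFP+ arrays were below all GFP+RFP+ arrays, with a log2 difference of -0.42 in lymph nodes and -0.42 in spleen. The limma adjusted p was 0.275, and 0.000273 to 0.378 over 17 alternatives.

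S1pr1 had 660.1 and 632 in GFP-RFP+ lymph node arrays, against 583 and 578 in GFP+RFP+ lymph node arrays. In spleen it had 681 and 855 in GFP-RFP+ arrays, against 521 and 539.5 in GFP+RFP+ arrays. The populations did not overlap, but in spleen the 2 technical GFP-RFP+ arrays were 0.33 apart on the log2 scale, close to the mean difference of 0.34 ± 0.16 (SE, 4 averaged profiles). The limma adjusted p was 0.392, and 0.00741 to 0.485 over 17 alternatives.

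Cxcr5, the receptor for the follicular chemokine Cxcl13, had 270.4 and 287 in GFP-RFP+ lymph node arrays, against 265 and 224 in GFP+RFP+ lymph node arrays. In spleen it had 406 and 406 in GFP-RFP+ arrays, against 311 and 289 in GFP+RFP+ arrays. The populations were apart within each organ but overlapped when organs were joined. The log2 difference was 0.31 ± 0.13 (SE, 4 averaged profiles), with a limma adjusted p of 0.367, and of 0.0125 to 0.519 over 17 alternatives.

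Gpr15 had 137 and 148 in GFP-RFP+ lymph node arrays, against 113 and 109 in GFP+RFP+ lymph node arrays. In spleen it had 152 and 115 in GFP-RFP+ arrays, against 114 and 116 in GFP+RFP+ arrays, which overlap. Its log2 difference of 0.28 was smaller than the distance of 0.40 between the technical GFP-RFP+ arrays from spleen, and its limma adjusted p was 0.371. For Cx3cr1 the brighter probe set had a log2 difference of -0.01 and the dimmer 0.23, against technical distances of up to 0.82 and 1.43. No difference of Cx3cr1 between populations was detectable at this signal.

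Over the 12 probe sets, 6 had all 4 GFP-RFP+ arrays above all 4 GFP+RFP+ arrays, against 12% of all probe sets, and 1 had them below, against 7.42%. Within lymph nodes, both GFP-RFP+ arrays were above both GFP+RFP+ arrays for 9 of the 12, against 28.8% of all probe sets, and below for 1, against 22.2%. Within spleen they were above for 9, against 25.6%, and below for 2, against 22.7%. A log2 difference of at least 1 in size was reached by 4 probe sets of 3 genes, against 3.39% of all probe sets. The median log2 difference of the 12 was 0.41, and that of all probe sets was 0.01. The arrays are 4 RNA samples measured in duplicate, so arrays that do not overlap show separation of these samples only.

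**Figure D2:**
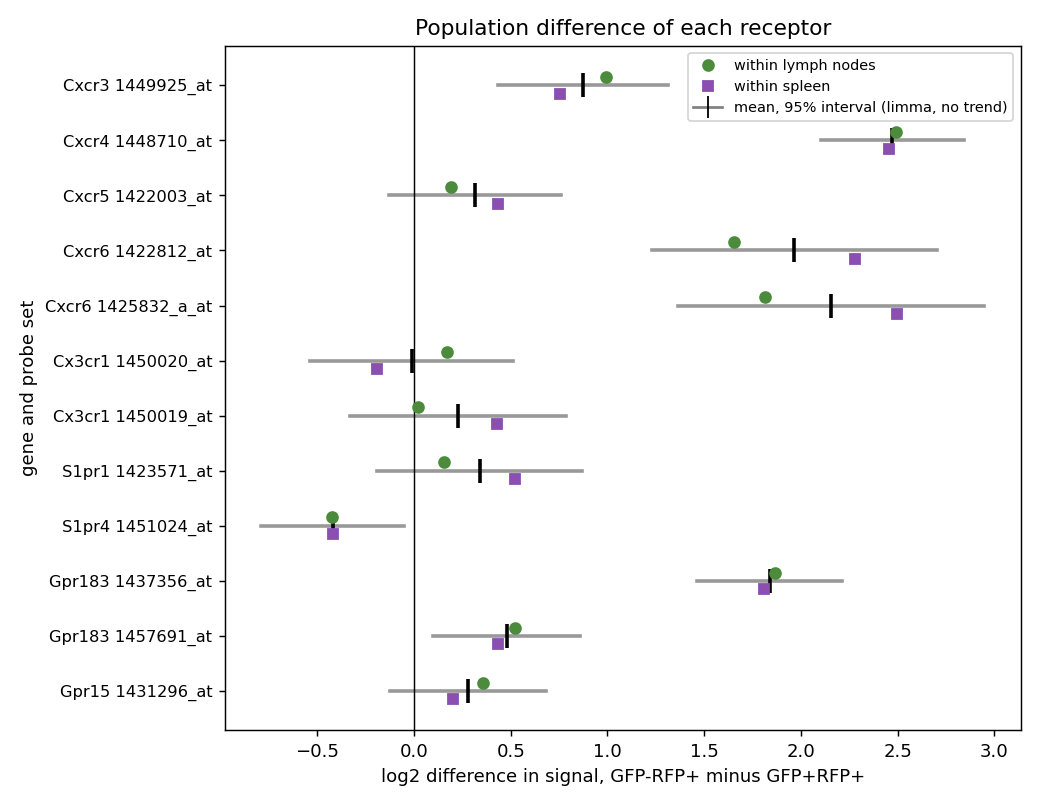
Log2 difference in signal, GFP-RFP+ minus GFP+RFP+, for each of the 12 receptor probe sets, within lymph nodes (circles) and within spleen (squares). The vertical mark is the mean over organs and the grey bar its 95% interval from the limma fit without trend. Cxcr4 lies at 2.49 within lymph nodes and 2.46 within spleen, and Cx3cr1 lies around 0.

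Promoter windows are shown for the 4 genes with the largest population difference, so that the sequence at their start can be read beside their signal. Each window holds 250 bases before and 50 after the annotated start, from RefSeq on GRCm38.p6, and 7 of the 9 receptors had an entry. The motifs searched, counted on both strands, were AP-1 (TGANTCA), RUNX (TGTGGT), KLF (CACCC), T-box (GGTGTGA), E-box (CACGTG) and TATA box (TATAAA). Capitals mark the matches.
Cxcr4, chr1:128592250-128592549, minus strand: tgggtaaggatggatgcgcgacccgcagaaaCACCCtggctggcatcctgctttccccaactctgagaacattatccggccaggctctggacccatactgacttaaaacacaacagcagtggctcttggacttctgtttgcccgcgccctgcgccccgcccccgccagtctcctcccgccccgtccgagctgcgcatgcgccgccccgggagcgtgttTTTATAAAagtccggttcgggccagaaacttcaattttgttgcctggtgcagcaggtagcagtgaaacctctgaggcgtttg
Gpr183, chr14:121965144-121965443, minus strand: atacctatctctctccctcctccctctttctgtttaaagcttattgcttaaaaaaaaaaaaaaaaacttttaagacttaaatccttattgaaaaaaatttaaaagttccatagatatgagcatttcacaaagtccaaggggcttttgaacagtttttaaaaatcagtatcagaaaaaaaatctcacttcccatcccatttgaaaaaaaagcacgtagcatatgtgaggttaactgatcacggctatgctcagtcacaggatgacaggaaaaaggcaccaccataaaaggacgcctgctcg
Cxcr6, chr9:123806227-123806526, plus strand: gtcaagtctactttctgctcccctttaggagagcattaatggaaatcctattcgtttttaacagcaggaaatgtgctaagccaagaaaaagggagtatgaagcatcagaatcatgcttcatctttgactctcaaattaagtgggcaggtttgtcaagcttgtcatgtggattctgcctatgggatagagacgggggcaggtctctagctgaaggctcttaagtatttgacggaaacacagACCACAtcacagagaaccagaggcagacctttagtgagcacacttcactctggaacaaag
Cxcr3, chrX:101734098-101734397, minus strand: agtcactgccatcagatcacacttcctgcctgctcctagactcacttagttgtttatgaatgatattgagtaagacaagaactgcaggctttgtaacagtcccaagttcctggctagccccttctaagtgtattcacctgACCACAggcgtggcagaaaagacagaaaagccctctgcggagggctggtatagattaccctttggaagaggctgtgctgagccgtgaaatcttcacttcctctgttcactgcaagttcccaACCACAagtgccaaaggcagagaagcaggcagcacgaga

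The Cxcr4 window held 20 CpG dinucleotides and 59.3% G and C, against medians of 7 and 52.7% over 32851 RefSeq windows of this length. It had a KLF match, found in 57.5% of all windows, and a single stretch, TTTATAAA, that matches the TATA box on both strands. As printed, TATAAA begins 30 bases before the start, and the match on the other strand begins 32 bases before it. At least 1 TATA box match was found in 13.6% of all windows. The Gpr183 window had 4 CpG dinucleotides, 35.3% G and C and none of the motifs. A RUNX match, found in 16.8% of all windows, occurred 1 time in the Cxcr6 window and 2 times in the Cxcr3 window. T-box matches, found in 3.98% of all windows, and E-box matches, found in 7.15%, occurred in none of the 7 receptor windows. The 4 windows share no motif, and the matches are a description of letters.

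The organ comparison asks how cells from lymph nodes differ from cells from spleen. Cxcr4, Cxcr3, Gpr183 and Cxcr5 had lower signal in lymph nodes in both populations, with log2 differences averaged over populations of -0.62 to -0.42. Cxcr6 was higher in lymph nodes in GFP+RFP+ cells. None passed the adjusted test: limma called 0 of 45037 probe sets, or 0%. At an unadjusted p below 0.05, 3 of the 12 receptor probe sets were counted, against 8.1% of all. With the mean-variance trend, 4 of the 12 were called, all lower in lymph nodes, against 1.42% of all probe sets.

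Cxcr4 averaged 0.62 lower in lymph nodes on the log2 scale (difference -0.62 ± 0.11, SE, 4 averaged profiles), with -0.61 within GFP-RFP+ cells and -0.64 within GFP+RFP+ cells. Its limma adjusted p was 0.586, and 6.77e-06 to 0.661 over 17 alternatives. Cxcr3 had a difference of -0.47 ± 0.13 and an adjusted p of 0.61, with 0.00081 to 0.742 over the alternatives in limma. Gpr183 had -0.44 ± 0.11 and an adjusted p of 0.597, with 0.000732 to 0.748 in limma. Cxcr5 had -0.42 ± 0.13 and an adjusted p of 0.617, with 0.00921 to 0.742 in limma. Cxcr5 was the only receptor probe set with all 4 lymph node arrays below all 4 spleen arrays, against 2.84% of all probe sets.

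Cxcr6 by 1422812_at had an organ difference of 0.09 within GFP-RFP+ cells and 0.72 within GFP+RFP+ cells. By 1425832_a_at the differences were 0.06 within GFP-RFP+ cells and 0.74 within GFP+RFP+ cells. The technical distances within groups were at most 0.17 for 1422812_at and at most 0.39 for 1425832_a_at, the latter in GFP+RFP+ lymph node arrays. S1pr1, S1pr4 and Gpr15 had organ differences of -0.05, -0.16 and 0.03. The brighter Cx3cr1 probe set had -0.36, with -0.18 within GFP-RFP+ cells and -0.54 within GFP+RFP+ cells, against technical distances of up to 0.82. For 10 of the 12 probe sets the population difference was larger in size than the organ difference. The share of all probe sets with this order was not counted. At an unadjusted p below 0.05, limma counted 17.1% of all probe sets in the population comparison and 8.1% in the organ comparison.

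**Figure D3:**
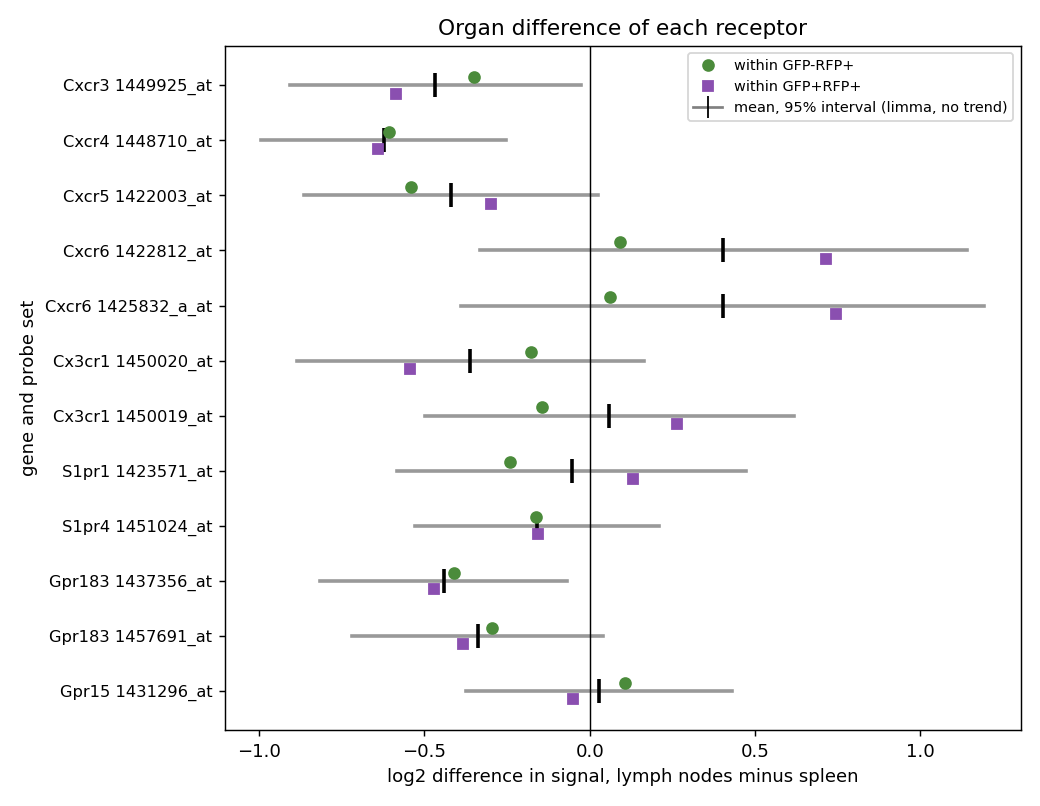
Log2 difference in signal, lymph nodes minus spleen, for each of the 12 receptor probe sets, within GFP-RFP+ cells (circles) and within GFP+RFP+ cells (squares). The vertical mark is the mean over populations and the grey bar its 95% interval from the limma fit without trend. Cxcr4, Cxcr3, Gpr183, Cxcr5, S1pr4 and the brighter Cx3cr1 probe set lie below 0 in both populations, and both Cxcr6 probe sets lie near 0 only within GFP-RFP+ cells.

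Markers of other cell types moved with the organ. The 5 myeloid markers summed to between 141 and 155 in GFP-RFP+ and between 133 and 149.8 in GFP+RFP+ lymph node arrays, against 1132 to 1599.7 in GFP-RFP+ and 846 to 1145 in GFP+RFP+ spleen arrays. The 5 B cell markers summed to between 232 and 255 in GFP-RFP+ and between 259.9 and 264 in GFP+RFP+ lymph node arrays, against 572 to 829 in GFP-RFP+ and 475 to 659 in GFP+RFP+ spleen arrays. The 3 erythroid markers summed to between 74.0 and 80.2 in GFP-RFP+ and between 55.3 and 66.8 in GFP+RFP+ lymph node arrays, against 461 to 535 in GFP-RFP+ and 220.5 to 360.1 in GFP+RFP+ spleen arrays. Of the B cell markers, Ms4a1, Cd79b and Cd22 were called P in all 8 arrays and Pax5 in none. The log2 difference, lymph nodes minus spleen, was -3.29 for Ms4a1, -1.39 for Cd22 and -0.83 for Cd79b. The part of these cells in the organ differences of Cxcr4, Cxcr3, Gpr183 and Cxcr5 was not tested. In such bulk samples a smaller share of cells with a transcript and less transcript per cell cannot be told apart.

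The other marker lists differed less by organ. The 4 dendritic markers summed to between 72.4 and 80.2 in GFP-RFP+ and between 76.7 and 80.8 in GFP+RFP+ lymph node arrays, against 113 to 115 in GFP-RFP+ and 76.0 to 81.5 in GFP+RFP+ spleen arrays. The 3 NK markers had sums of 51.2 to 60.8 in GFP-RFP+ lymph node arrays, against 81.2 to 88.6 in GFP+RFP+ lymph node arrays. In spleen the NK sums were 44.7 to 67.9 in GFP-RFP+ arrays, against 87.4 to 96.3 in GFP+RFP+ arrays. Of the NK markers, Eomes was called P in 7 arrays, Ncr1 in 3 and Klrb1c in 0. The log2 population difference of Ncr1 was -0.86 within lymph nodes and 0.15 within spleen, and that of Eomes was -0.65 and -0.83. The 2 CD8 T cell markers summed to between 135 and 191 over all 8 arrays. Of the 6 regulatory T cell markers, 3 were called higher in GFP-RFP+ cells with the trend, against 10.1% of all probe sets, and 2 lower, against 5.34%. Il2ra, which encodes the CD25 chain used in the sort, had a log2 difference of -0.86, Foxp3 had -0.57, and the inhibitory receptor Ctla4 had 1.45. The part of these differences in the receptor values was not tested. Within lymph nodes, where the myeloid, B cell and erythroid sums were lowest, single B cell markers had population differences in both directions. The log2 difference was 1.06 for Cd22, -0.33 for Ms4a1 and -0.82 for Cd79b. The receptor population differences there were 2.49 for Cxcr4, 1.87 for Gpr183, 1.65 for Cxcr6 and 0.99 for Cxcr3. The part of other cells in them was not tested.

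Genes that act around these receptors were counted from lists chosen with earlier results of these data known. In the limma fit without trend 0 of their 41 genes with a probe set passed the adjusted test, and 13 had an unadjusted p below 0.05, against 17.1% of all probe sets. The counts that follow are with the trend, under which 10.1% of all probe sets were called higher and 5.34% lower. Of 12 genes of the sphingosine phosphate system, 2 were higher in GFP-RFP+ cells and 1 was lower. Cd69, which removes S1pr1 from the surface, had a log2 difference of 2.25, with signals of 3573 and 3329 in GFP-RFP+ lymph node arrays, against 754 and 980.2 in GFP+RFP+ lymph node arrays. Klf2, a transcription factor known to activate S1pr1, had a difference of 0.44. S1pr5, a receptor known from NK cells, was called P in none of the arrays.

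None of the 6 oxysterol genes was called in either direction. Hsd3b7, which degrades the Gpr183 ligand, had a log2 difference of -0.21, and the oxysterol-sensing nuclear receptor Nr1h2 had 0.02. Of the 8 chemokine ligands and related receptors with a probe set, 1 was called higher. This was Cxcl10, a ligand of Cxcr3, with 1742 and 1585 in GFP-RFP+ lymph node arrays, against 203 and 263 in GFP+RFP+ lymph node arrays. In spleen it had 2006 and 2462 in GFP-RFP+ arrays, against 218 and 261 in GFP+RFP+ arrays. Its log2 difference of 3.03 was larger than that of Cxcr4, and its arrays did not overlap between populations. It was the sole gene of its list called P in all 8 arrays.

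Of 10 genes of receptor coupling and desensitisation, 4 were higher and 1 was lower with the trend. Rgs2 and Rgs16, which shorten G protein signals, had log2 differences of 1.92 each. The inhibitory G protein subunits Gnai2 and Gnai3 had -0.09 and 0.08. Of 5 lineage factors linked to the receptors, 4 were higher and 1 was lower. Rora, a nuclear receptor, had a log2 difference of 1.62, and Tbx21, which encodes T-bet, had 1.18. The median differences were 0.17 for the sphingosine phosphate genes, -0.10 for the oxysterol genes, 0.27 for the ligands, 0.12 for the coupling genes and 0.88 for the lineage factors, against 0.01 for all probe sets.

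**Figure D4:**
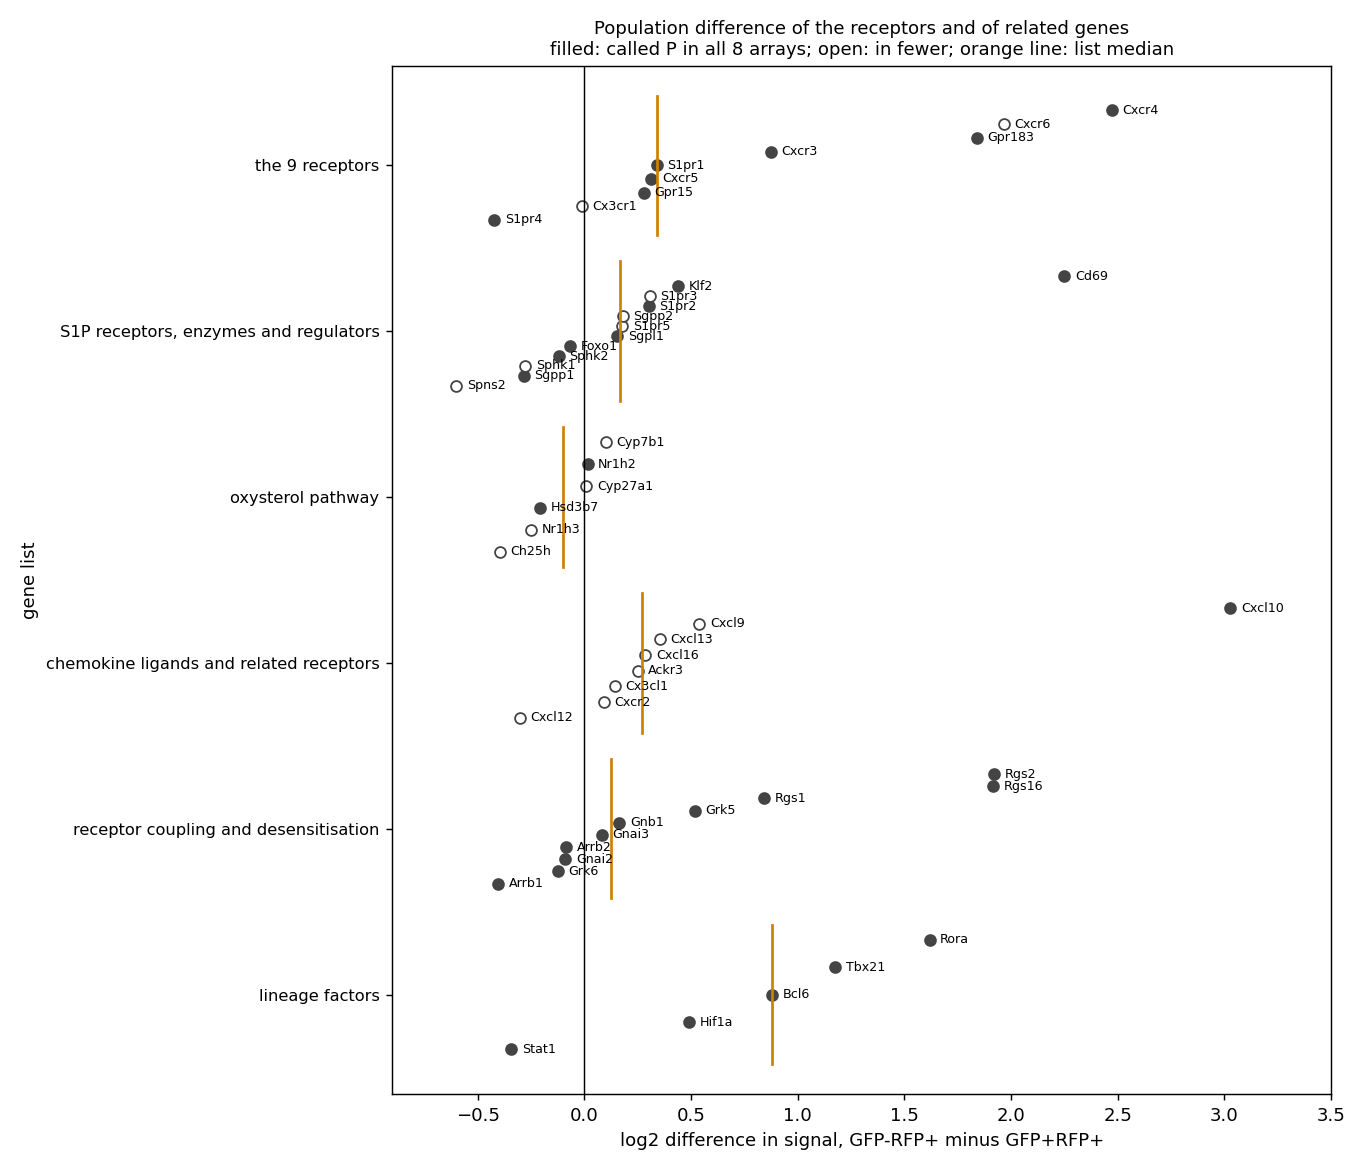
Log2 difference in signal, GFP-RFP+ minus GFP+RFP+, averaged over organs, for the 9 receptors and 5 lists of related genes, 1 point per gene. Filled points were called P in all 8 arrays, open points in fewer, and orange lines are list medians. Cxcl10 at 3.03, Cxcr4 at 2.47 and Cd69 at 2.25 lie farthest right.

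Among the 9 receptors Cxcr4 had the widest range of the 4 group means, and Isy1 and Ube2b were among the genes with the most similar pattern over the 8 arrays. Pearson r with Cxcr4 was 0.999 for Isy1 and 0.998 for Ube2b, among 9471 genes called P in all arrays. The 8 arrays come from 4 RNA samples, and 748 of these genes had r above 0.95. The log2 differences between populations, 0.41 for Isy1 and 0.34 for Ube2b, were a small part of the 2.47 of Cxcr4.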

How the data were processed

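Affymetrix Mouse430_2 arrays of sorted mouse regulatory T cells were analysed from 2 deposited tables. Per the file headers, the authors computed model-based intensity with dChip, checked for outliers, named a baseline array and took no logarithm. The submitters' processing notes name RMA. All 8 columns of the per-sample table equalled 1 dChip column each at all 45101 probe sets, so its values were dChip intensities. The dChip columns have names that match no label and were assigned to no sample; their detection calls (other values, P, M or A, as deposited by the authors) were counted over the 8 arrays. Levels and groups came from the per-sample table, whose columns are named by sample.

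Intensity was analysed as log2(signal + 1). The 2 technical arrays of a group were averaged and counted as 1 sample, since the labels call them technical replicates. A limma model with population and organ was fitted to the 4 averaged profiles over 45037 probe sets that are not controls (limma 3.58.1, R 4.3.3), with Benjamini-Hochberg adjustment and a threshold of 0.05. The fit has 1 residual degree of freedom and a prior of 1.72. The spread between mice or sorts was not measured. The precision is limited by the 4 averaged profiles, 1 per group, and not by the number of arrays.

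A probe set stood for a gene when it carried that gene's Entrez identifier and no other. Where a gene had several, the one with the highest mean level was used. The 9 receptors were all described. In each related list, the 2 genes with the largest population difference among those called P in all 8 arrays were named where none passed the test. The lists were S1P genes, oxysterol genes, chemokine ligands and related receptors, receptor coupling, lineage factors, and markers of regulatory T, B, myeloid, dendritic, NK, CD8 T and erythroid cells. The members and lists were chosen with earlier results of these data known. A gene named by the rule on patterns like that of Cxcr4 is not reported here. Promoter sequences and current symbols came from RefSeq tables of GRCm38.p6. Alternatives covered normalization, the offset, a filter on calls, a mean-variance trend, arrays left out and arrays kept apart.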

Additional observations from a re-analysis of the deposited data

How the results depend on the processing

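In both comparisons, the count of probe sets with an adjusted p below 0.05 was 0 under quantile normalization, median centring, averaging of a gene's probe sets, no offset and each array left out. It was higher under other settings, at 8514 (population) and 901 (organ) with all 8 arrays kept and the group as a random block, at 6664 and 443 when a replicate block for the technical number was added to that fit, at 6968 and 872 with a mean-variance trend, and at 3700 and 279 with log2(signal + 16). A filter on probe sets called P in at least 2 arrays gave 28 for the organ comparison and 0 for the population comparison. Keeping 8 arrays treats technical copies as samples, and the estimated correlation within a group was -0.29, so those fits measure the spread between technical arrays only. The technical numbers did not pair the arrays: deviations of equal numbers correlated at -0.05 to 0.02. The cause of the other changes was not tested. No receptor called under any alternative changed direction; differences that changed sign were never called, and these were the population difference of both Cx3cr1 probe sets and the organ difference of Cx3cr1 (1450019_at), Gpr15 and S1pr1. With 1 array left out, the population difference of Cxcr4 was 2.39 to 2.56. Averaging probe sets kept 5 of the 9 receptors at their place in the order of signals, and 7 representative probe sets were called P in all 8 arrays, also with M counted. The offset alternatives were chosen after seeing the data. Low signal limits Cx3cr1.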
